A study of Mus musculus with 6 samples.

Results

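The 35 genes described here are the ligands and receptors of the tumour necrosis factor (TNF) superfamily that could be read in this series, out of 12393 genes in all. They were chosen by name: every platform symbol that starts with Tnfsf or Tnfrsf, with Tnf, Lta, Ltb, Ltbr, Fas, Fasl, Cd27, Cd40 and Cd40lg. Each was read through the probe set, a group of short array probes for one transcript, that had the highest mean over the arrays and named 1 gene only. The set holds 12 ligands and 23 receptors.

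Lungs of 6 wildtype C57BL/6J mice, labelled male and aged 8 to 10 weeks, were measured on Affymetrix MOE430A arrays, 1 mouse per array. Saline mice A, B and C received 50 µl of saline, and mice D, E and F received bleomycin at 1 mg/kg in the same volume. Both groups were taken at day 14. Bleomycin is a DNA-damaging drug that causes lung fibrosis when given through the airways. Delivery was oropharyngeal by the design text and intratracheal by the source labels, so the route is not settled here. The trachea and large airways had been cut away and the remaining lung was powdered, so each value is an average over all its cells. In such bulk RNA, fewer cells of a type and less RNA per cell cannot be told apart.

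TNF superfamily ligands are mostly membrane proteins that act as trimers, either on the cell surface or after a protease has released them. Their receptors fall into those with a cytoplasmic death domain, which can start apoptosis, those that bind TRAF adaptor proteins and turn on the NF-kappaB transcription factors, and decoys that bind a ligand without a signal. In the lung, macrophages are a main source of TNF, B cells depend on the ligand BAFF, and Fas on epithelial cells can trigger their death.

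All values are on a log2 scale, where 1 unit is a 2-fold difference. The array medians lay between 7.37 and 7.41. Correlations across probe sets were 0.986 to 0.995 among bleomycin arrays and 0.965 to 0.985 between groups. Bleomycin D lay farthest from the saline arrays, with a score of 44.3 on the first principal component against 12.9 for E and 19.8 for F. Saline B went against its label: the X-inactivation transcript Xist stood at 11.4 there and at 7.23 to 7.88 on the other arrays. The Y chromosome gene Eif2s3y stood at 4.05 on saline B and at 7.23 to 8.02 on the others. Surfactant genes marked the tissue as lung, with Sftpc at 14.36 ± 0.03 in saline (SD, n = 3). Of 10 macrophage markers, 8 rose after bleomycin and 0 fell, with the largest differences in C1qb (3.42), C1qc (2.74), Cd68 (2.68) and C1qa (2.44), and their summed level was 12.65 to 12.98 in saline and 14.03 to 14.22 in bleomycin lungs. Of 8 fibroblast markers, Col1a1, Col1a2, Col3a1 and Lum rose and Tcf21 fell. Of 8 endothelial markers, Kdr fell, and of 6 plasma cell markers, Jchain rose. No marker of T cells (9), B cells (7), neutrophils (7) or type 2 cells (7) passed limma's test, and at an unadjusted p under 0.05 there were 0, 1, 0 and 1. The largest differences in these lists were those of Cd5 (0.37), Blk (-0.68), S100a9 (-0.35) and Slc34a2 (-0.46).

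At day 14, 2 receptors of the superfamily were called higher in bleomycin lungs, 1 of them through only 1 of its 2 probe sets. Tnfrsf1b, which encodes the second TNF receptor (TNFR2), rose 2.2-fold in the probe set used, which is the brighter one only through the bleomycin arrays. With probe sets chosen by saline mean its difference was 0.16 (limma adjusted p = 0.542) and 1 member was called. Tnfrsf12a, which encodes Fn14, the receptor of the ligand TWEAK, rose 2.08-fold in limma. No ligand and no death-domain receptor passed an adjusted p of 0.05 in limma. The 2 receptors are 5.71% of the 35 genes, while 3.7% of all 12393 genes were called higher and 5.6% were called in either direction. No member was called lower, where 1.9% of all genes were. The family is thus close to the background in its share of calls. Its median difference was -0.04, the same as the median over all genes.

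**Figure D1:**
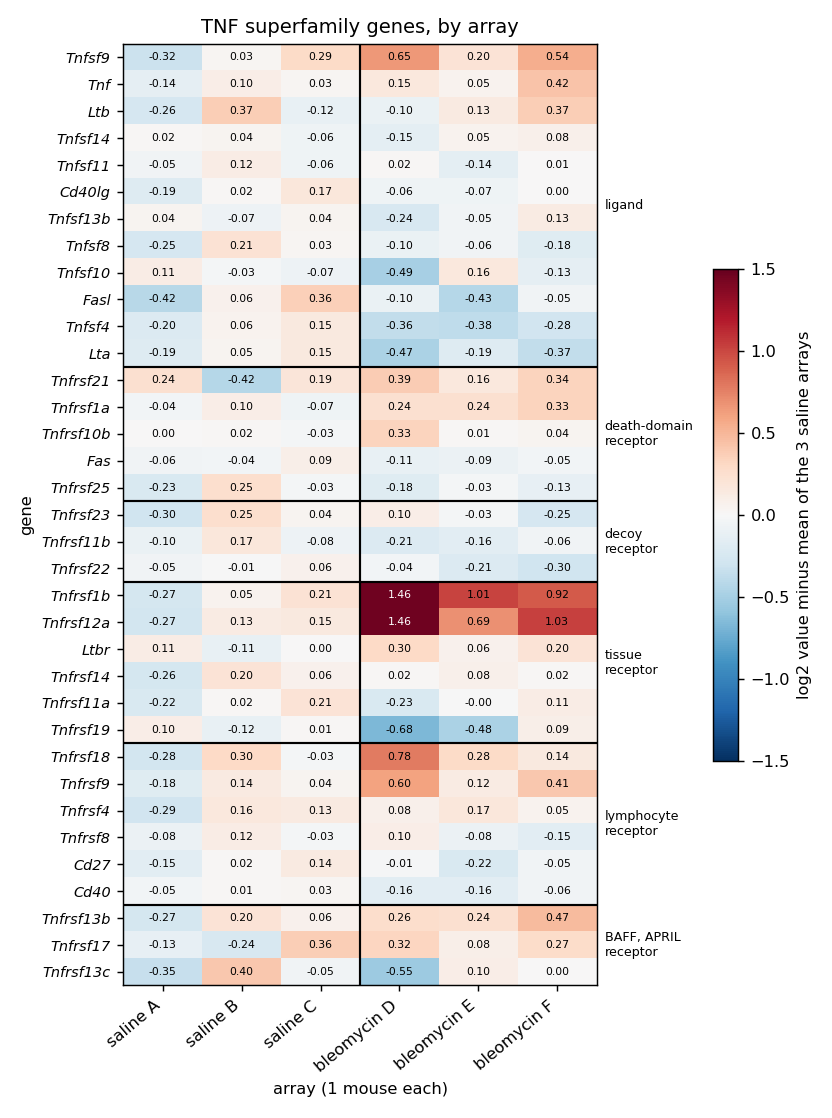
Value of each of the 35 genes on each array minus the mean of the 3 saline arrays (log2 units, colour and printed number), ordered by role of the protein and by difference. Tnfrsf1b and Tnfrsf12a stand out in all 3 bleomycin columns, and both are highest on bleomycin D.

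The 33 other genes had differences between -0.35 and 0.46, with 13 above and 20 at or below 0. Their standard errors were 0.1 to 0.22. The 95% interval of every one of the 33 lay within 1 log2 unit of 0, and that of 22 lay within a 1.5-fold change in both directions. Changes of 2-fold or more in these probe sets are therefore outside the intervals. Of the 33, 5 had an unadjusted p under 0.05 (Tnfsf4, Lta, Tnfrsf1a, Tnfsf9 and Tnfrsf9), with adjusted p of 0.148 to 0.187. The bleomycin arrays lay wholly above the saline arrays for 4 genes (11.4% of the family, against 13.3% of all genes) and wholly below for 3 (8.57%, against 14.6%). The first were Tnfrsf1b, Tnfrsf12a, Tnfrsf1a and Tnfrsf13b, and the others were Tnfsf4, Lta and Cd40.

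**Figure D2:**
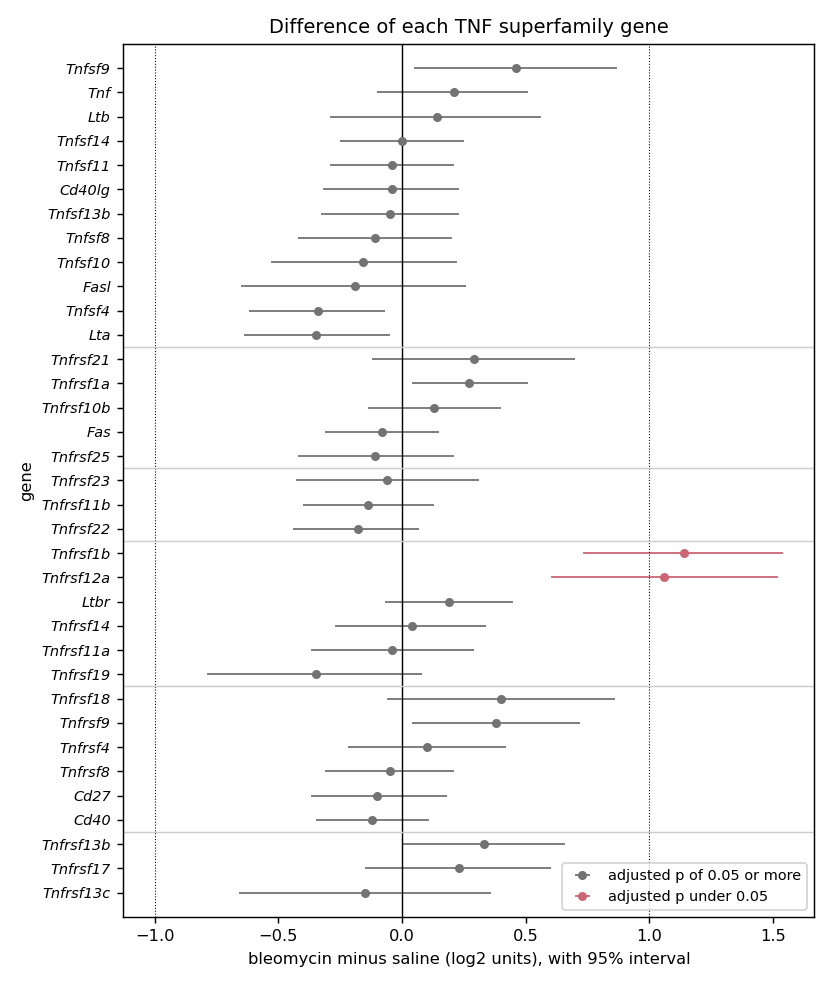
Bleomycin minus saline for each of the 35 genes (log2 units, points) with 95% intervals from limma (bars), in the same order by role; dotted lines mark a 2-fold difference. The intervals of Tnfrsf1b (0.73 to 1.54) and Tnfrsf12a (0.6 to 1.52) lie apart from 0, and all grey intervals end inside the dotted lines.

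Tnfrsf1b is carried by macrophages, lymphocytes and endothelial cells and binds membrane TNF with TRAF signalling and no death domain. Its values were 7.24, 7.56 and 7.72 in saline lungs A to C and 8.97, 8.52 and 8.43 in bleomycin lungs D to F. Every bleomycin value was above every saline value. The means were 7.51 ± 0.24 and 8.64 ± 0.29 (SD, n = 3 each), a difference of 1.14 ± 0.18 (SE, limma adjusted p = 0.0123). The other probe set of the gene gave 7.64 ± 0.20 and 7.8 ± 0.15 (SD, n = 3 each), a difference of 0.16 ± 0.14 (SE, limma adjusted p = 0.542), with overlapping groups. The choice between them bears on the result, because the probe set used is the brighter one only when the bleomycin arrays are counted. Chosen by the saline arrays alone, the gene would be read by the other probe set and would not be called. With both probe sets averaged the difference was 0.65 (adjusted p = 0.0369). Without saline A it was 1.0 (adjusted p = 0.058), without saline B 1.16 (0.0329), and without bleomycin D 0.97 (0.0212). The macrophage markers above rose on the same arrays, and their part in the Tnfrsf1b difference was not tested.

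Tnfrsf12a encodes a small receptor that growth factors induce in epithelial cells and fibroblasts, where TWEAK signals through it to NF-kappaB. Its values were 8.14, 8.54 and 8.56 in saline lungs A to C and 9.87, 9.1 and 9.44 in bleomycin lungs D to F. The groups did not overlap, and bleomycin D was highest. The means were 8.41 ± 0.24 and 9.47 ± 0.38 (SD, n = 3 each), a difference of 1.06 ± 0.20 (SE, limma adjusted p = 0.0257). Its second probe set, of a kind that can also bind related transcripts, gave 1.09 ± 0.21 (SE, limma adjusted p = 0.027). Both probe sets of this gene thus passed, unlike those of Tnfrsf1b. The call was less stable to the removal of mice: leaving out saline A, B or C gave adjusted p of 0.0928, 0.051 and 0.0577, and leaving out bleomycin F gave 0.0774. The difference stayed between 0.86 (without bleomycin D) and 1.24 (without bleomycin E). The fibroblast markers summed to 13.56 to 13.91 in saline and 14.21 to 14.68 in bleomycin lungs, with 4 of 8 higher and 1 lower, and their part in the difference was not tested. The TWEAK gene Tnfsf12 shares its probe sets with Tnfsf13 or a joined transcript of both, so neither ligand was read here. The probe set that does not name Tnfsf13 itself gave -0.09 (limma adjusted p = 0.701). The one that names it gave 0.41 (limma adjusted p = 0.0979), with every bleomycin value above every saline value.

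**Figure D3:**
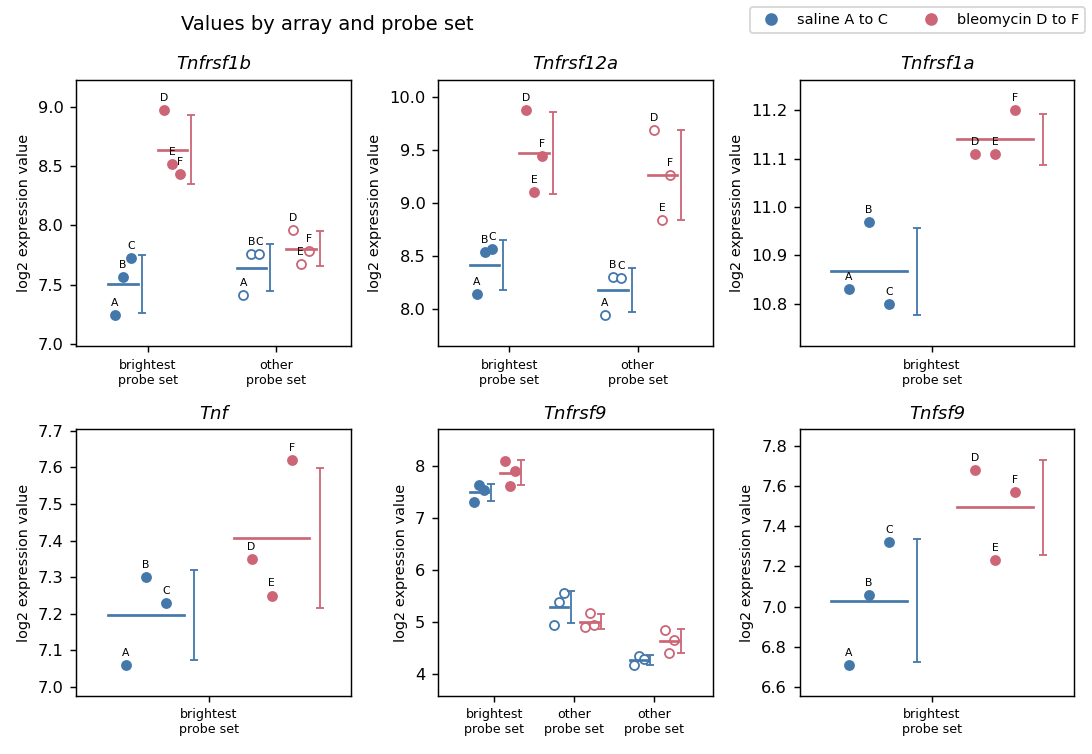
Log2 values of 6 genes by array (points, letters name the mice except in Tnfrsf9), with group means (lines) and SD (bars); filled points are the probe set used and open points the gene's other probe sets. The saline and bleomycin points of Tnfrsf1b separate in the probe set used and overlap in the other, whereas those of Tnfrsf12a separate in both.

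**Figure D4:**
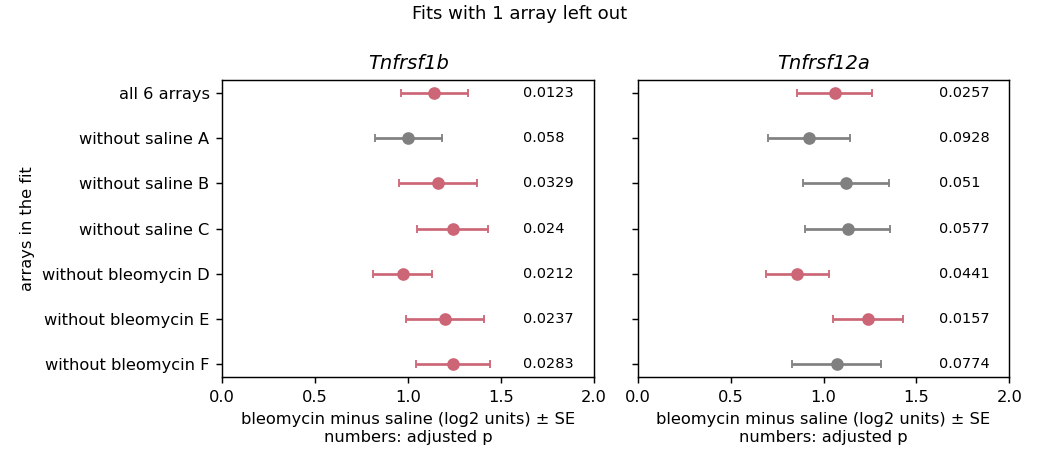
Difference of Tnfrsf1b and Tnfrsf12a (log2 units, points, with SE as bars) in limma fits on all 6 arrays and with 1 array left out, with the adjusted p beside each; red marks an adjusted p under 0.05. Tnfrsf1b keeps its call in 5 of the 6 reduced fits, all but the one without saline A, and Tnfrsf12a in those without bleomycin D or E.

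The bases just upstream of both risen receptors are shown beside those of Tnfrsf1a, the other TNF receptor, whose transcript differed by 0.27. Each stretch is the 250 bases before the gene's start in RefSeq on GRCm38.p6, read along the gene's strand: chr4:145246871-145247120 (minus strand) for Tnfrsf1b, chr17:23677450-23677699 (minus strand) for Tnfrsf12a and chr6:125349473-125349722 (plus strand) for Tnfrsf1a. Capitals mark GC boxes, the motif GGGCGG on either strand, which the transcription factor Sp1 binds.
Tnfrsf1b: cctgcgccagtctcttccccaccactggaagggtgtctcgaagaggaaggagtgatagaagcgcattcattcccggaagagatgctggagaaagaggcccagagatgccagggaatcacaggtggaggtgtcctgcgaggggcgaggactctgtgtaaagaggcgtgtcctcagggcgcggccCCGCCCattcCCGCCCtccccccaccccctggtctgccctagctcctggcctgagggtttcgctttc
Tnfrsf12a: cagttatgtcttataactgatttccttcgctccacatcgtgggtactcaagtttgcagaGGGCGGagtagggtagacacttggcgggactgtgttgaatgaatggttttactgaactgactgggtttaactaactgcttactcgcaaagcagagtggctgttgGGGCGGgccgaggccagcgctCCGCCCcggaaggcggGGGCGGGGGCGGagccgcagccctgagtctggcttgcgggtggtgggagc
Tnfrsf1a: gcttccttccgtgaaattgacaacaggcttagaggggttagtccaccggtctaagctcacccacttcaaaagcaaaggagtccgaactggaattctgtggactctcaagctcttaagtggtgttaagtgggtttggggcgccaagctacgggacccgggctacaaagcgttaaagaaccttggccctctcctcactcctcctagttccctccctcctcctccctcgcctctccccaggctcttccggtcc
Tnfrsf1b held 2 GC boxes, Tnfrsf12a 5 and Tnfrsf1a 0. A GC box is common: 32.7% of 32851 promoter windows of this length held at least 1, as did 14 of the 28 family genes with a window. The first share counts windows and the second counts genes with a box in any of their windows, so they are not directly comparable. None of the 3 windows shown held an AP-1 motif (TGANTCA, in 6.75% of all windows) or the kappaB consensus (in 7.25%), which says only that these letters are not in these 250 bases.

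The change of Tnfrsf1b relative to Tnfrsf1a within each array depended on the Tnfrsf1b probe set. With the one used, the log2 ratio was higher on every bleomycin array than on any saline array, by 0.86 on average (exact two-sided permutation p = 0.1, the smallest that 3 arrays against 3 can give). With the one that was brighter in saline lungs, an alternative added after seeing the data, it changed by -0.11 and the groups overlapped (exact two-sided permutation p = 0.6). No direction can therefore be given for the ratio of both receptors.

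Among the ligands, Tnf itself, the cytokine that activates both TNF receptors, was 7.06, 7.3 and 7.23 in saline lungs and 7.35, 7.25 and 7.62 in bleomycin lungs. The groups overlapped, and the difference of 0.21 ± 0.13 did not pass (SE, limma adjusted p = 0.411). Tnfsf9, which encodes the 4-1BB ligand of antigen-presenting cells, had the largest positive difference of any ligand. It was 6.71, 7.06 and 7.32 in saline lungs against 7.68, 7.23 and 7.57 in bleomycin lungs, a difference of 0.46 ± 0.18 (SE, limma adjusted p = 0.183). Bleomycin E lay below saline C. Its receptor Tnfrsf9, found on activated T cells, was 7.32, 7.64 and 7.54 in saline lungs and 8.1, 7.62 and 7.91 in bleomycin lungs. That difference of 0.38 ± 0.15 did not pass either (SE, limma adjusted p = 0.187). Its 2 dimmer probe sets gave 0.37 and -0.29, so the sign differed between probe sets. These 2 lay at percentiles 5.2 and 13 of all probe sets, against 55.2 for the one used, so their signs say little.

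The ligands with the lowest differences were Lta and Tnfsf4. Lta, which encodes lymphotoxin alpha of lymphocytes, was 6.37, 6.61 and 6.71 in saline lungs and 6.09, 6.37 and 6.19 in bleomycin lungs. Bleomycin E equalled saline A to 2 decimals, and the difference was -0.35 ± 0.13 (SE, limma adjusted p = 0.171). Tnfsf4, which encodes the T cell costimulator OX40 ligand, was 6.7, 6.96 and 7.05 in saline lungs and 6.54, 6.52 and 6.62 in bleomycin lungs. All 3 bleomycin values were below the saline values, with a difference of -0.34 ± 0.12 (SE, limma adjusted p = 0.148), the lowest adjusted p among the members that did not pass. Its receptor Tnfrsf4 differed by 0.1.

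The death ligands showed no difference beyond the spread between mice. Tnfsf10, which encodes TRAIL, was 7.4, 7.26 and 7.22 in saline lungs and 6.8, 7.45 and 7.16 in bleomycin lungs, which spans the saline values (difference -0.16 ± 0.16, SE, limma adjusted p = 0.624). Fasl, the ligand of Fas on cytotoxic lymphocytes, was 5.65, 6.13 and 6.43 in saline lungs and 5.97, 5.64 and 6.02 in bleomycin lungs (difference -0.19 ± 0.20, SE, limma adjusted p = 0.619). Tnfsf13b, which encodes BAFF, the survival factor of B cells, was 8.9, 8.79 and 8.9 in saline lungs and 8.62, 8.81 and 8.99 in bleomycin lungs. Its difference was -0.05, with an interval of -0.33 to 0.23. The remaining ligands were Ltb (0.14), Tnfsf14 (0 to 2 decimals), Tnfsf11, which encodes the osteoclast factor RANKL (-0.04, and 0.03 in its other probe set), Cd40lg (-0.04) and Tnfsf8 (-0.11).

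Of the 5 death-domain receptors, Tnfrsf1a, the broadly expressed first TNF receptor, came nearest to a call. Its values were 10.83, 10.97 and 10.8 in saline lungs and 11.11, 11.11 and 11.2 in bleomycin lungs. The groups did not overlap, and the difference was 0.27 ± 0.10 (SE, limma adjusted p = 0.175). Its saline mean was 10.86 ± 0.09 (SD, n = 3). Fas, a death receptor whose gene p53 activates after DNA damage, was 8.08, 8.1 and 8.23 in saline lungs and 8.03, 8.05 and 8.09 in bleomycin lungs. Its difference was -0.08 ± 0.10 (SE, limma adjusted p = 0.699), and the interval of -0.31 to 0.15 makes it one of the narrowest of the family. Tnfrsf21, death receptor 6, was 8.09, 7.43 and 8.04 in saline lungs and 8.24, 8.01 and 8.19 in bleomycin lungs. The difference was 0.29 (limma adjusted p = 0.387), and 0.08 without saline B, which was low. Its other probe set gave -0.08. The TRAIL receptor Tnfrsf10b (0.13, and -0.12 in its other probe set) and Tnfrsf25 (-0.11) differed less.

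The 3 decoy receptors lay between -0.18 and -0.06. Tnfrsf11b, which encodes osteoprotegerin, the soluble decoy of RANKL, was 5.13, 5.4 and 5.15 in saline lungs and 5.02, 5.07 and 5.17 in bleomycin lungs (difference -0.14 ± 0.12, SE, limma adjusted p = 0.533), and its other probe set gave 0.05. Tnfrsf22 (-0.18) and Tnfrsf23 (-0.06) encode decoys of TRAIL. They are close relatives in sequence, so the signal of one gene's probe set may include the other, and the other probe sets of Tnfrsf22 gave 0.06 and 0.1.

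Among receptors of tissue cells besides the called pair, Tnfrsf19, an epithelial receptor also called TROY, had the lowest difference. It was 9.22, 9.0 and 9.13 in saline lungs and 8.44, 8.64 and 9.21 in bleomycin lungs, so that D and E were low and F lay among the saline values (difference -0.35 ± 0.19, SE, limma adjusted p = 0.329). Its 2 other probe sets gave -0.04 and -0.18. Ltbr, the lymphotoxin beta receptor of stromal and epithelial cells, was 9.17, 8.95 and 9.06 in saline lungs and 9.36, 9.12 and 9.26 in bleomycin lungs (difference 0.19 ± 0.11, SE, limma adjusted p = 0.385). Tnfrsf11a, which encodes RANK (-0.04, and 0.11 in its other probe set), and Tnfrsf14, which encodes HVEM (0.04), had intervals between -0.37 and 0.34 in the probe sets used.

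The costimulatory receptors of lymphocytes gave no call. Tnfrsf18, which encodes GITR of regulatory T cells, was 6.52, 7.1 and 6.77 in saline lungs and 7.58, 7.08 and 6.94 in bleomycin lungs. Only bleomycin D exceeded all saline values, and the difference was 0.4 ± 0.20 (SE, limma adjusted p = 0.293). Cd40, the receptor through which T cells activate B cells and macrophages, was 7.52, 7.58 and 7.6 in saline lungs and 7.41, 7.41 and 7.51 in bleomycin lungs. These did not overlap but differed by only -0.12 ± 0.10 (SE, limma adjusted p = 0.532), and the other probe set of Cd40 gave 0.16. Tnfrsf4 (0.1), Tnfrsf8 (-0.05) and Cd27 (-0.1) lay nearer to 0. The T cell markers also gave no call, with a summed level of 10.24 to 10.81 in saline and 10.45 to 10.77 in bleomycin lungs.

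The receptors for BAFF and its relative APRIL mark stages of B cells. Tnfrsf13b, which encodes TACI of activated B cells, was 6.94, 7.41 and 7.27 in saline lungs and 7.47, 7.45 and 7.68 in bleomycin lungs. The groups did not overlap, and the difference of 0.33 ± 0.14 did not pass (SE, limma adjusted p = 0.238). Tnfrsf17, which encodes the plasma cell receptor BCMA, was 5.29, 5.18 and 5.78 in saline lungs and 5.74, 5.5 and 5.69 in bleomycin lungs (difference 0.23 ± 0.17, SE, limma adjusted p = 0.472). The BAFF receptor Tnfrsf13c of resting B cells differed by -0.15. Of the 6 plasma cell markers, only Jchain, which joins secreted antibodies, was called (5.16-fold higher, limma adjusted p = 0.00668). The other 5 were Sdc1 (0.3), Irf4 (0.18), Pou2af1 (0.1), Xbp1 (-0.05) and Prdm1 (-0.57). The B cell markers summed to 11.14 to 12 in saline and 10.96 to 11.76 in bleomycin lungs.

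Several of these genes lie next to each other in the genome, counted among protein-coding genes of the RefSeq annotation. Tnfrsf1b on chromosome 4 lies next to Tnfrsf8, whose difference was -0.05 against 1.14. Tnf on chromosome 17 lies between Ltb and Lta, and the 3 genes differed by 0.21, 0.14 and -0.35. Tnfrsf4 and Tnfrsf18 on chromosome 4 are also adjacent (0.1 and 0.4). On chromosome 6, Cd27, Ltbr and Tnfrsf1a are each separated by 1 gene (-0.1, 0.19 and 0.27). In the only such group with a called gene, the called gene's neighbour was not called. This says little, because 33 of the 35 members were not called and only 5.6% of all genes were.

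The proteins that carry or answer TNF signals were described through 5 lists, of which 50 genes could be read. Of these, 8 rose (16%, against 3.7% of all genes) and 1 fell (2%, against 1.9%), with a median difference of 0.11. With probe sets chosen by saline mean 6 of the 50 rose, where 3.61% of all genes did. The lists were drawn up with earlier results of these data known, so these shares are no independent evidence about the pathway. In the list of TNF shedding and TNF-induced proteins 5 of 8 rose and the median was 0.71. This list also takes in Litaf and Lgals9, which are not TNF proteases and are not named for induction by TNF. Its share is therefore not one of TNF-induced genes alone. Litaf, a lysosomal protein induced by lipopolysaccharide and first described as a regulator of TNF, was 10.32, 10.25 and 10.48 in saline lungs and 11.77, 11.29 and 11.46 in bleomycin lungs. Both of its probe sets passed, and the difference of 1.15 was 2.23-fold (SE 0.14, limma adjusted p = 0.00471). Adam17, the protease that releases TNF and TNFR2 from the cell surface, was 9.32, 8.84 and 9.47 in saline lungs and 10.17, 9.89 and 9.93 in bleomycin lungs, with no overlap. It rose 1.73-fold (limma adjusted p = 0.0393), with 2 of its 3 probe sets called. Tnfaip2, a TNF-induced protein, rose 1.83-fold, with 1 of its 2 probe sets called. With probe sets chosen by saline mean its difference was 0.67 and did not pass (limma adjusted p = 0.073). Lgals9, which encodes galectin-9, a sugar-binding protein that is not a protease of TNF, rose 1.71-fold. Tnfaip8, named after its value was seen, rose 1.56-fold. Tnfaip6, a matrix-binding protein that TNF induces, was 4.22 in both groups, and Tnfaip1 differed by 0.14. The level of Tnfaip6 was at percentile 3.1 of all probe sets, so its lack of a difference says little. Adam10 differed by 0.41 without overlap and did not pass in the probe set used, while 1 of its 3 probe sets was called. The largest difference among these was 0.92.

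Of 10 NF-kappaB factors and kinases, Relb and Nfkb2, the pair of the alternative NF-kappaB pathway, were called higher and 0 fell. The call of Nfkb2 rests on only 1 of its 2 probe sets. Relb was 7.83, 7.58 and 7.9 in saline lungs and 8.53, 8.24 and 8.72 in bleomycin lungs, a rise of 0.72 ± 0.15 (SE, limma adjusted p = 0.0341). Nfkb2 was 7.63, 7.54 and 7.71 in saline lungs and 8.14, 8.06 and 8.23 in bleomycin lungs, a rise of 0.52 ± 0.11 (SE, limma adjusted p = 0.0341). Its other probe set gave 0.03 (limma adjusted p = 0.94). As for Tnfrsf1b, the probe set used is the brighter one only when the bleomycin arrays are counted. Chosen by the saline arrays alone, Nfkb2 would not be called. Rela, the main factor of the classical pathway, differed by -0.16, and the list median was -0.08. Of 12 feedback and survival targets, Bcl3, which encodes a nuclear partner of NF-kappaB p50 and p52, was the only one called. It was 8.04, 7.61 and 8.21 in saline lungs and 9.26, 8.71 and 9.26 in bleomycin lungs, a 2.18-fold rise (limma adjusted p = 0.0195). The 11 others did not pass and ran from Nfkbia (-0.44) to Nfkbie (0.72), with Tnfaip3 at 0.12 and Birc3 at 0.11. Every bleomycin value was above every saline value for Nfkbie, Tnip1 (0.28) and Icam1 (0.19), and below for Nfkbia.

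**Figure D5:**
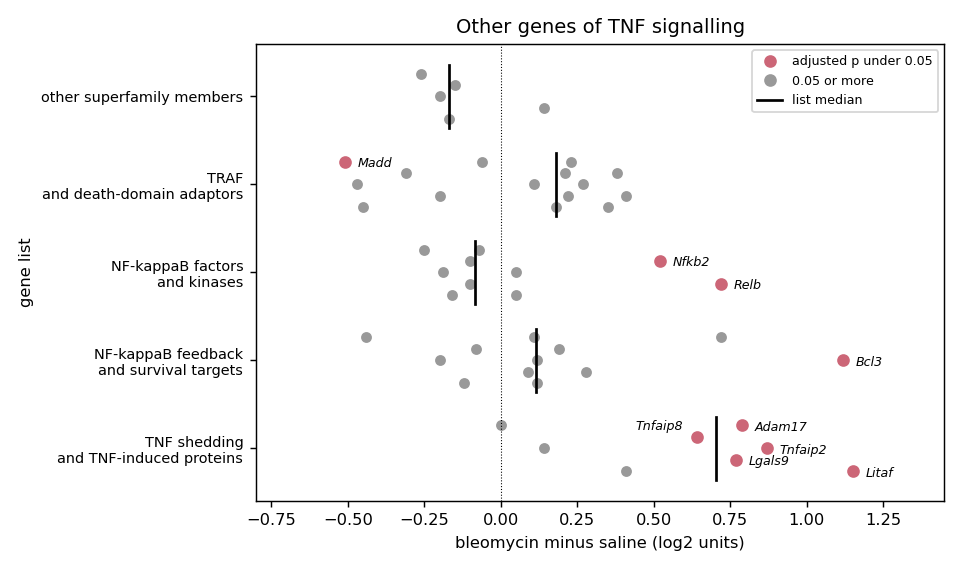
Bleomycin minus saline (log2 units) of the 50 other genes of TNF signalling in 5 lists, 1 point per gene, with the list medians as black lines; red points passed an adjusted p of 0.05 in limma. The list of shedding and TNF-induced proteins, which also takes in Litaf and Lgals9, holds 5 called genes and has a median of 0.71. The other 4 lists have medians between -0.17 and 0.18.

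Of 15 TRAF and death-domain adaptors, 0 rose and 1 fell: Madd, an adaptor that binds the death domain of TNFR1, was 7.56, 7.61 and 7.82 in saline lungs and 7.13, 7.25 and 7.06 in bleomycin lungs (difference -0.51, limma adjusted p = 0.0439). The last list held 4 superfamily genes outside the naming rule (Cd70, Eda, Edar and Ngfr) and Edaradd, the death-domain adaptor of Edar. In limma 0 of these 5 were called, 0 had an unadjusted p under 0.05, and Edaradd had the largest difference (-0.26). In the fits with 1 array left out, Litaf and Tnfaip2 kept their calls in the probe sets used (limma adjusted p up to 0.0358 and 0.0448). The number of the 50 genes called higher was 2 without saline A, bleomycin D or bleomycin F, 4 without saline B or C, and 6 without bleomycin E. Over all genes the share called higher in these fits was 1.32% without saline A, 2.41% without bleomycin D, 1.7% without bleomycin F, 2.47% and 2.15% without saline B and C, and 3.11% without bleomycin E. When saline A was left out, adjusted p-values were 0.0734 for Bcl3, 0.0914 for Relb, 0.0863 for Nfkb2, 0.0949 for Adam17, 0.0652 for Lgals9 and 0.0918 for Tnfaip8. Without bleomycin F these were 0.0732, 0.112, 0.126, 0.101, 0.104 and 0.0758, and without bleomycin D 0.0547, 0.085, 0.0797, 0.105, 0.0823 and 0.0614. Calls were also lost without saline B (Relb 0.0865, Nfkb2 0.0904, Adam17 0.0658, Tnfaip8 0.087), saline C (Relb 0.0654, Nfkb2 0.0698, Lgals9 0.0575, Tnfaip8 0.0905) and bleomycin E (Nfkb2 0.0565, Adam17 0.0634). Madd passed in none of the 6, with adjusted p of 0.0655 to 0.15. As with the receptors, marker lists moved on the same arrays. The summed macrophage, fibroblast and plasma cell markers were higher on every bleomycin array than on any saline array. Those of endothelial and type 2 cells were lower. The part of these cell types in the rises was not tested.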

How the data were processed

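RNA of 6 lungs was measured on 1 array each. The deposited values are log2 expression per probe set, which the authors made by RMA with quantile normalization, as the design text of the series says. The software version and the probe set definitions used in that step were not given in the sources used here. Log base 2 was inferred from the values, whose largest is 14.42. Scanner files and detection calls are not used here, so probe sets near background could not be marked.

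Of 22690 probe sets, 64 controls were left out and 22626 were tested with limma 3.58.1 in R 4.3.3 (lmFit, eBayes, no covariates), with Benjamini-Hochberg adjustment over all of them and a threshold of 0.05. Gene names are GEO's platform annotation, and 20380 probe sets had 1 symbol, 691 several and 1555 none listed. All 35 members matched the RefSeq table of GRCm38.p6, used for chromosomes and neighbours. Promoter windows are RefSeq's. Adjusted p-values are limma's, a fold is the power of 2 of a difference, and intervals are 95%. The array letters do not pair saline with bleomycin mice. The design text counts 3 mice per group.

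The members, the gene lists and the rule for named genes were chosen with earlier results of these data known. The rule gave values per array for each called member, the 10 others with the largest differences and 11 genes set by name, and from each list up to 4 called genes or the 1 with the largest difference. Named beyond it were Tnfaip8, Tcf21, Sftpc, Xist, Eif2s3y and the shared probe sets of Tnfsf12. So were the 5 genes with an unadjusted p under 0.05 as a group and list genes given by their difference alone. The fit was tested on simulated data. Python 3.11.15 with matplotlib 3.10.9 drew the plots.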

Additional observations from a re-analysis of the deposited data

How the results depend on the processing

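With 2 members higher and 0 lower in the main analysis, 0 were higher at an adjusted p of 0.01 and 1 when probe sets were chosen by saline mean, an alternative added after seeing the data, which changed the probe set of 1 member, Tnfrsf1b, and of 146 genes in all. With 1 array left out the number higher was 0 to 2, and in no alternative was a member lower. The members' median difference, -0.04, was 0.16 when probe sets under the median level were left out, where 12 of the 35 members remained and the median over all genes was 0. Of the 50 pathway genes, 8 were higher and 1 lower. The number higher was 4 with arrays centred on ribosomal protein genes, 2 at an adjusted p of 0.01 and 2 to 6 with 1 array left out. It was 6 with probe sets chosen by saline mean. The number lower was 0 with the trended robust prior, with ribosomal centring, at an adjusted p of 0.01 and with each array left out, and 2 at an adjusted p of 0.1. Tnfaip2 (0.67, adjusted p = 0.073) and Nfkb2 (0.03, adjusted p = 0.94) did not pass with probe sets chosen by saline mean, nor Nfkb2 with probe sets averaged (0.203). Ribosomal centring gave an adjusted p of 0.0603 for Relb, 0.0837 for Nfkb2, 0.072 for Adam17 and 0.0589 for Tnfaip8, and repeated quantile normalization gave 0.0505 for Adam17 and 0.0596 for Lgals9. No called gene named here changed sign, and no member not called in the main analysis was called under any alternative. Of the 35 members, 23 lay under the median level of all probe sets and 8 under the lower quartile (5.98), where small differences are least reliable. For those 8 a lack of difference also says little.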
